A study of Mus musculus with 12 samples.

Results

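A set of 10 genes that restrain the cell cycle or answer stress were followed in epididymal white adipose tissue (eWAT), the fat pad beside the epididymis, after epinephrine. They were picked by gene symbol and comprise the CDK inhibitor genes Cdkn1a, Cdkn1b and Cdkn1c, the GADD45 genes Gadd45a, Gadd45b and Gadd45g, the Polo-like kinase genes Plk2 and Plk3, and the p53 feedback genes Mdm2 and Ccng1. All 10 were found among the 27179 genes of the count table, and all 10 passed the filter on low counts that left 16175 genes for testing. The epinephrine group was 6 male C57BL/6J mice that received sodium epinephrine at 0.5 mg/kg into the peritoneum. The vehicle group was 6 male C57BL/6J mice that received saline by the same route. All were on chow, no genetic change is listed in either group, and fat was taken 1 h after the injection. The listed ages were 18 to 23 weeks for epinephrine and 12 to 17 weeks for vehicle, rising by 1 week from each mouse to the next, so listed age and treatment do not overlap.

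Proteins of the Cip/Kip family, encoded by Cdkn1a (p21), Cdkn1b (p27) and Cdkn1c (p57), bind cyclin-CDK complexes and hold cells before DNA replication. Gadd45 proteins are small stress sensors that bind PCNA, p21 and the kinase MTK1, which acts upstream of p38 and JNK. Plk2 and Plk3 are kinases known as early serum- and stress-response products, and Mdm2 and cyclin G1 act back on p53. Most cells of adult fat do not divide, and in this setting several of these genes are also known as rapid responders to hormones and stress.

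The libraries held between 24821601 and 34405433 reads assigned to genes, and the members had between 176 and 5837 reads each. The 10 adipocyte markers held 1.20% to 2.56% of counts in epinephrine libraries and 0.915% to 2.66% in vehicle libraries, with 0 of them at 0 reads throughout and 0 passing the test by edgeR or DESeq2, also at an unadjusted p under 0.05. The 23 epididymis and testis markers varied far more, from 0.0101% to 3.89% of counts in epinephrine libraries and from 0.00402% to 5.44% in vehicle libraries, and 0 of them passed by either tool or at an unadjusted p under 0.05. Epinephrine 1, epinephrine 2 and vehicle 2 held the highest epididymal shares and the lowest adipocyte shares, which were 1.20%, 1.78% and 0.915%. Among the other marker lists, edgeR called Ncr1 lower (1 of 8 T and NK cell markers), Cldn5 higher (1 of 9 endothelial markers, 3 at an unadjusted p under 0.05), Tagln higher (1 of 7 smooth muscle and pericyte markers) and Hbb-bs lower (1 of 4 tested red cell markers), and DESeq2 also called Ccr2 (1 of 8 macrophage and monocyte markers). The summed shares of these lists overlapped between the groups, and their part in the members' values was not tested. In bulk tissue, fewer cells of a type and less RNA per cell cannot be told apart.

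Epinephrine was followed by higher Cdkn1a, Gadd45g, Plk2 and Plk3 and by slightly lower Cdkn1b. The other 5 members did not pass the test. Of the 10 members, 5 passed, where 6.23% of all 16175 tested genes did. Of these, 4 were higher, where 2.65% of all tested genes were, and 1 was lower, where 3.58% of all tested genes were (edgeR quasi-likelihood test, Benjamini-Hochberg adjusted p under 0.05 over all tested genes). The groups did not overlap for 4 members, Cdkn1a, Cdkn1b, Gadd45g and Plk3, while 4.79% of all tested genes had groups that did not overlap. The median log2 fold change of the 10 was 0.12, beside 0.00 for all tested genes. Each family with a called member also held a member that did not pass, moved the other way or moved less, and these differences are tested within libraries further on. The members were chosen with earlier results of these data known, so their share is a description.

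**Figure D1:**
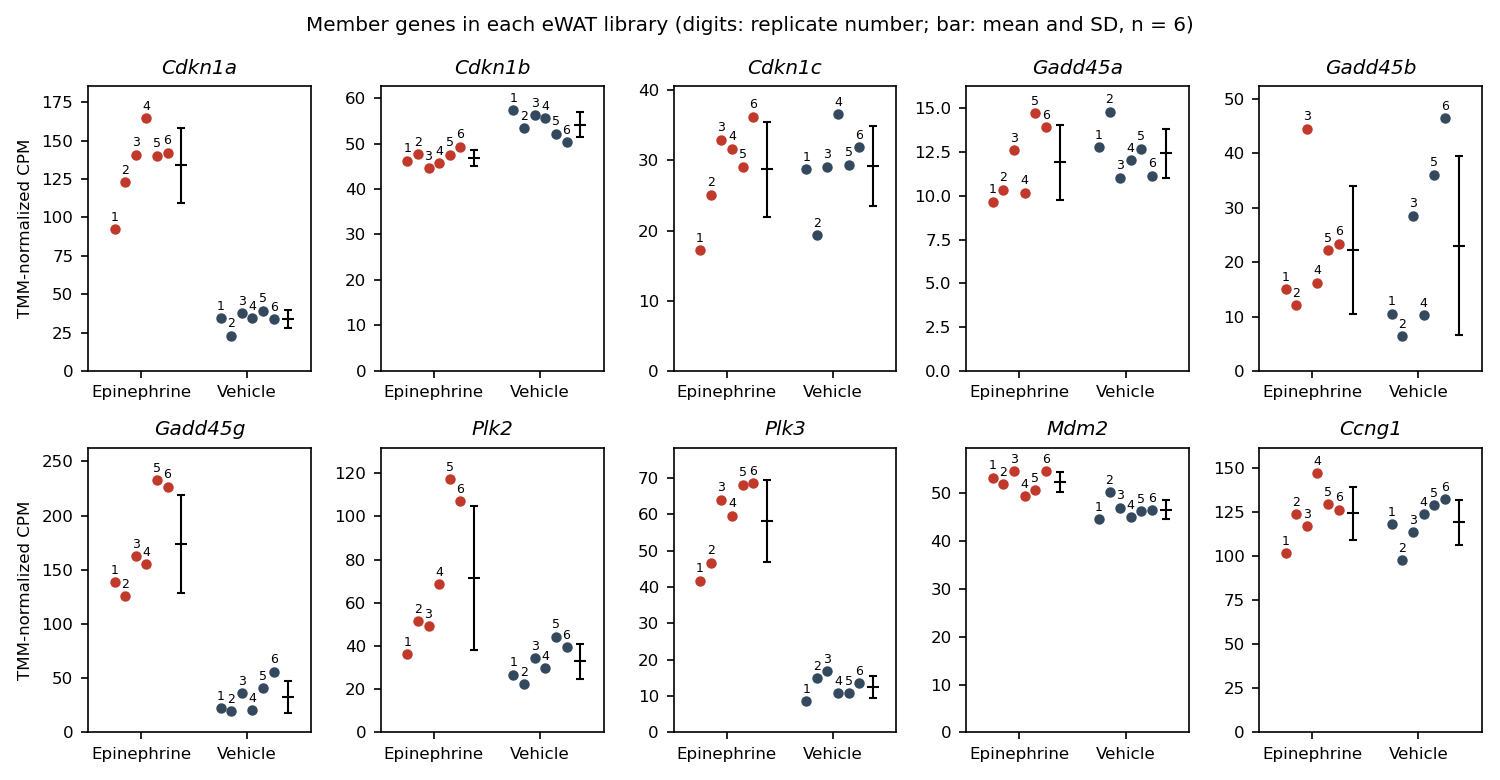
TMM-normalized CPM (y axis, from 0) of the 10 members in each library, with epinephrine on the left and vehicle on the right of each panel; digits are replicate numbers and the bar is the mean with its SD (n = 6 each). For Cdkn1a, Gadd45g and Plk3 all 6 epinephrine libraries sit above all 6 vehicle libraries, Cdkn1b shows the opposite order at a small distance, and Gadd45b spreads widely in both groups.

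Cdkn1a, the p21 gene on chromosome 17 (29090979 to 29100722 of GRCm38), rose 3.97-fold. Its level, in CPM (counts scaled to the library's size and its TMM factor), had a lowest value of 92.3, a median of 140.5 and a highest value of 165 in epinephrine libraries, against 22.9, 34.5 and 39.3 in vehicle libraries. Every epinephrine library was thus above every vehicle library, and the lowest library of each group was among those with a high epididymal share, epinephrine 1 and vehicle 2. The group means were 134 ± 24.3 CPM with epinephrine and 33.7 ± 5.72 CPM with vehicle (SD, n = 6 each), and edgeR gave a log2 fold change of 1.99 ± 0.15 (SE) with an adjusted p of 3.99e-05. Without the 3 libraries in which the epididymal gene Gpx5 exceeded 0.5% of counts, the log2 fold change was 2.04. Whether epididymal RNA has a part in the spread was not tested.

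The RefSeq promoter table holds a pair of annotated starts for Cdkn1a. The 250 bases before the upstream start are shown because Cdkn1a is the best known p53 target of the set and this window holds matches to the p53 response element decamer, printed in capitals.
Cdkn1a upstream start, GRCm38.p6 chr17:29090729-29090978, plus strand: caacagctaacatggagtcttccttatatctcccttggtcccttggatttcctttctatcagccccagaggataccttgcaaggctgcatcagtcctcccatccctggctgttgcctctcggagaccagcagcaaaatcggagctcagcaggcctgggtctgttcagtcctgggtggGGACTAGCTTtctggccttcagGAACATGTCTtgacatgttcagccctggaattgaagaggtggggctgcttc
The capitals mark 2 matches to the p53 decamer, at positions -73 to -64 and -51 to -42 relative to that start. Of 32851 promoter windows of this length, 7.13% held such a match on either strand. The window before the downstream Cdkn1a start held 0, and it held 0 matches to TGACGTCA, TGACG or TGANTCA as well. The windows of Gadd45a, Mdm2 and Ccng1, which did not pass the test, each held 1.

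Cdkn1b, the p27 gene on chromosome 6 (134920401 to 134925525), fell by 0.21 on the log2 scale. Its lowest, median and highest values were 44.5, 46.9 and 49.3 CPM in epinephrine libraries, against 50.3, 54.5 and 57.4 CPM in vehicle libraries. The groups did not overlap, though the highest epinephrine library and the lowest vehicle library were close. The means were 46.8 ± 1.71 CPM with epinephrine and 54.2 ± 2.67 CPM with vehicle (SD, n = 6 each), with a log2 fold change of -0.21 ± 0.05 (SE) and an edgeR adjusted p of 0.023. A block for the replicate number ended the call (edgeR adjusted p = 0.115), as did listed age as a covariate (0.221), and it also ended without epinephrine 3 (0.0626), epinephrine 4 (0.102), vehicle 1 (0.0607), vehicle 3 (0.0605) or vehicle 4 (0.0995). The value stayed between -0.23 and -0.18 when each library was left out in turn.

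Cdkn1c, the imprinted p57 gene on chromosome 7 (143458339 to 143461059), did not pass. Its lowest, median and highest values were 17.2, 30.4 and 36.2 CPM in epinephrine libraries, against 19.3, 29.2 and 36.6 CPM in vehicle libraries. The groups overlapped almost entirely, and the lowest library of each was again epinephrine 1 and vehicle 2. The log2 fold change was -0.02 with a 95% interval from -0.42 to 0.38 (SE 0.18, edgeR adjusted p = 0.981).

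Within libraries, Cdkn1a moved against both relatives. The log2 ratio of Cdkn1a to Cdkn1b averaged 1.49 ± 0.29 with epinephrine and -0.70 ± 0.28 with vehicle (SD, n = 6 each), a difference of 2.20 with a 95% interval from 1.84 to 2.57. Its exact two-sided permutation p was 0.00216, the smallest that 6 against 6 libraries can give, and the adjusted p was 0.00379 over the 7 ratios compared. The log2 ratio of Cdkn1a to Cdkn1c averaged 2.24 ± 0.17 with epinephrine and 0.21 ± 0.19 with vehicle (SD, n = 6 each), a difference of 2.02 (interval 1.79 to 2.25, exact permutation adjusted p = 0.00379). In CPM, Cdkn1a thus exceeded Cdkn1b in every epinephrine library and lay below it in every vehicle library. The ratio of Cdkn1c to Cdkn1b differed by 0.17 (interval -0.28 to 0.60, exact permutation adjusted p = 0.472), which leaves a difference in either direction possible. These ratios do not depend on how libraries are scaled, since both genes come from the same library.

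**Figure D2:**
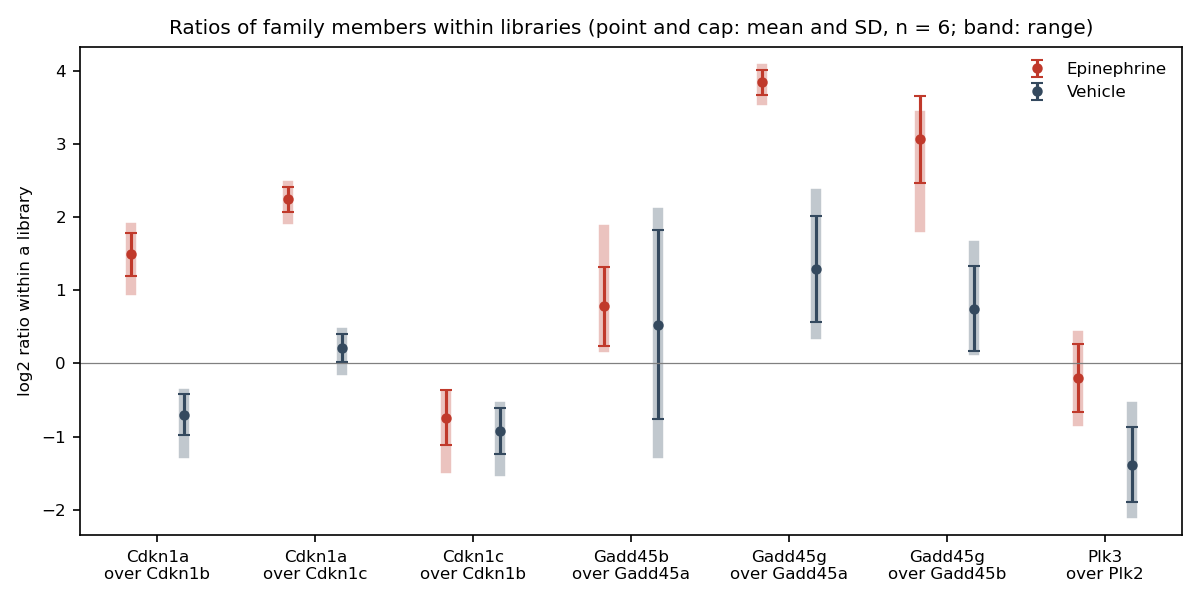
Log2 ratio of CPM between members of a family within each library (y axis), epinephrine left and vehicle right in each pair; points and caps are the mean and SD (n = 6 each) and bands the range over libraries. The ratios that have Cdkn1a or Gadd45g on top show groups that do not overlap, the Plk3 to Plk2 ratio overlaps slightly, and the Cdkn1c to Cdkn1b and Gadd45b to Gadd45a ratios overlap widely.

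Among the GADD45 genes only Gadd45g passed. Gadd45g, on chromosome 13 (51846675 to 51848475), rose 5.32-fold, the largest change among the 10 members. The lowest, median and highest epinephrine libraries held 126, 159 and 233 CPM, against 19.5, 29.4 and 56.0 CPM in vehicle libraries. All epinephrine libraries were above all vehicle libraries, with epinephrine 5 and 6 highest in their group and vehicle 6 highest in its own. The means were 174 ± 45.3 CPM with epinephrine and 32.6 ± 14.4 CPM with vehicle (SD, n = 6 each), and the edgeR log2 fold change was 2.41 ± 0.29 (SE, adjusted p = 0.0006). With listed age as a covariate the log2 fold change was 1.15 (edgeR adjusted p = 0.031).

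Gadd45b, on chromosome 10 (80930091 to 80932204), showed the widest spread among the members. Its lowest, median and highest values were 12.0, 19.3 and 44.6 CPM in epinephrine libraries, against 6.36, 19.5 and 46.5 CPM in vehicle libraries. The highest vehicle library held 7.31 times the lowest, so the groups overlapped completely and the interval of the log2 fold change ran from -1.14 to 1.04 (log2 fold change -0.05, SE 0.50, edgeR adjusted p = 0.986). The libraries with the highest Gadd45b were vehicle 6 at 46.5 CPM, epinephrine 3 at 44.6, vehicle 5 at 36.1 and vehicle 3 at 28.5. The same 4 libraries held the highest Ccl2, a chemokine gene, at 149, 69.2, 103 and 85.6 CPM, where the remaining libraries had at most 21.4 CPM. Within vehicle, libraries 3, 5 and 6 also held the highest Gadd45g (36.2, 40.8 and 56.0 CPM), the highest Plk2 (34.3, 44.3 and 39.5 CPM) and the highest Fos (131, 134 and 133 CPM). The summed share of the 5 neutrophil markers was highest in vehicle 6 (0.00441%), epinephrine 3 (0.00367%) and vehicle 5 (0.00274%), while vehicle 3 (0.000768%) lay among the remaining libraries, which had at most 0.00111%. Over all libraries that share ran from 0.000541% to 0.00367% with epinephrine and from 0.000301% to 0.00441% with vehicle, and 0 of the 4 tested neutrophil markers passed by edgeR or DESeq2 or at an unadjusted p under 0.05. The part of these markers in Gadd45b was not tested.

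Gadd45a, on chromosome 6 (67035096 to 67037407), did not pass. Its lowest, median and highest values were 9.67, 11.5 and 14.7 CPM in epinephrine libraries, against 11.05, 12.4 and 14.8 CPM in vehicle libraries. The groups overlapped, although 3 epinephrine libraries lay below the lowest vehicle library. The log2 fold change was -0.06 (SE 0.12, 95% interval -0.33 to 0.21, edgeR adjusted p = 0.906).

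The paralogs differed within libraries. The log2 ratio of Gadd45g to Gadd45a averaged 3.84 ± 0.17 with epinephrine and 1.29 ± 0.73 with vehicle (SD, n = 6 each), a difference of 2.56 (95% interval 1.84 to 3.25, exact permutation adjusted p = 0.00379). The log2 ratio of Gadd45g to Gadd45b averaged 3.06 ± 0.59 with epinephrine and 0.75 ± 0.58 with vehicle (SD, n = 6 each), a difference of 2.31 (interval 1.57 to 3.04, exact permutation adjusted p = 0.00379). Both pairs of groups were free of overlap. The ratio of Gadd45b to Gadd45a differed by 0.25 (interval -1.10 to 1.59, exact permutation adjusted p = 0.662), which does not show that these genes behaved alike.

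The 250 bases before the starts of Gadd45g and Gadd45b are shown side by side because these paralogs showed the largest change and the widest spread of the family.
Gadd45g, GRCm38.p6 chr13:51846425-51846674, plus strand: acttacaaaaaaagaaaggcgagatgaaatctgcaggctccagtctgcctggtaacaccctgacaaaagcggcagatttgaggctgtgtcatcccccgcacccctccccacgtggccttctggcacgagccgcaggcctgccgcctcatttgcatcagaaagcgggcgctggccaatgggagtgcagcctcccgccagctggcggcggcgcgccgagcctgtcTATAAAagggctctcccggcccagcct
Gadd45b, GRCm38.p6 chr10:80929841-80930090, plus strand: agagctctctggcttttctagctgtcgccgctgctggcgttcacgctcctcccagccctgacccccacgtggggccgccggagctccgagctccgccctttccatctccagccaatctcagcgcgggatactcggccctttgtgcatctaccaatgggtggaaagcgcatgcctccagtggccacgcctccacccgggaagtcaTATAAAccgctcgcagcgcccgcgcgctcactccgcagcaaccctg
The capitals mark TATAAA, which lies at positions -27 to -22 in Gadd45g and at -46 to -41 in Gadd45b. TATAAA on either strand is held by 12.4% of all windows of this length. Neither window held TGACGTCA, TGACG or TGANTCA, and both held CCAAT, as 33.8% of all windows do.

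Both Polo-like kinase genes passed, with different firmness. Plk3, on chromosome 4 (117128655 to 117133963), rose 4.62-fold. The epinephrine libraries held 41.7 CPM at the lowest, 61.8 at the median and 68.5 at the highest, against 8.64, 12.1 and 16.9 CPM in vehicle libraries. All epinephrine libraries were above all vehicle libraries. Exons of Plk3 overlap an opposite-strand gene, Tctex1d4, by 84 bases, and that gene had 11 to 168 reads a library and did not pass (log2 fold change 0.73, edgeR adjusted p = 0.717). The means were 58.1 ± 11.4 CPM with epinephrine and 12.6 ± 3.07 CPM with vehicle (SD, n = 6 each), a log2 fold change of 2.21 ± 0.19 (SE, edgeR adjusted p = 7.47e-05).

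Plk2, on chromosome 13 (110395044 to 110400844), rose 2.18-fold. Its lowest, median and highest values were 36.1, 60.0 and 117 CPM in epinephrine libraries, against 22.4, 32.1 and 44.3 CPM in vehicle libraries. Epinephrine 5 and 6, at 117 and 107 CPM, stood above the other 4 epinephrine libraries, and epinephrine 1 fell within the vehicle range. The means were 71.6 ± 33.3 CPM with epinephrine and 32.9 ± 8.17 CPM with vehicle (SD, n = 6 each), and edgeR gave 1.12 ± 0.29 (SE) on the log2 scale with an adjusted p of 0.0444. The call ended without any 1 of the libraries epinephrine 2 to 6 or vehicle 1 to 6 (edgeR adjusted p between 0.0508 and 0.103) and held without epinephrine 1 (0.0153). With listed age as a covariate the log2 fold change was -0.47 (edgeR adjusted p = 0.283), and within replicate numbers 4 to 6 it was 1.37 (adjusted p = 0.0234). The Plk2 call held with the epididymal score (1.15, edgeR adjusted p = 0.0023), the replicate block (1.03, 0.0184) and without the 3 libraries of high Gpx5 (1.29, 0.0143). It ended with no filter on low counts (edgeR adjusted p = 0.061), in limma on the VST values (0.0605) and within numbers 1 to 3 (edgeR, 0.474).

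The log2 ratio of Plk3 to Plk2 averaged -0.20 ± 0.46 with epinephrine and -1.38 ± 0.51 with vehicle (SD, n = 6 each). The difference of 1.19 (95% interval 0.57 to 1.84) had an exact permutation p of 0.00649 and an adjusted p of 0.00909. Plk3 thus rose more than Plk2 within libraries, although the ratios of the groups overlapped slightly.

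The windows before both kinase genes are shown because they alone, among the 9 members with a window, held the cyclic AMP response element (CRE) or its TGACG core, the letters that CREB-family factors are known to bind.
Plk2, GRCm38.p6 chr13:110394794-110395043, plus strand: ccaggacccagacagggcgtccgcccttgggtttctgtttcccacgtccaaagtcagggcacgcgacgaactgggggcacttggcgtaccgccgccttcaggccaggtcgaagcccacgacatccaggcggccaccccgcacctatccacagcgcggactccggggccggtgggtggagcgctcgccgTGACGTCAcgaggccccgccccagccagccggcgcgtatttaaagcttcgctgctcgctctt
Plk3, GRCm38.p6 chr4:117133964-117134213, minus strand: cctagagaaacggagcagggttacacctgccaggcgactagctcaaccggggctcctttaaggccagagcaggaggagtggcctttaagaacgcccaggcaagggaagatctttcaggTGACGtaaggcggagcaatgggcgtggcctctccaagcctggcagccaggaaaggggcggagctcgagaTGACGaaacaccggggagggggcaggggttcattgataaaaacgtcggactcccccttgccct
The capitals mark TGACGTCA in Plk2 and TGACG in Plk3. The full element TGACGTCA lies at positions -62 to -55 of Plk2 and contains TGACG on both strands, while Plk3 holds TGACG at -132 to -128 and at -63 to -59. Of all windows of this length, 1.55% held TGACGTCA and 17.8% held TGACG on either strand. Cdkn1a and Gadd45g, which also rose, held 0 of either in these windows, and no window of a member held TGANTCA (6.75% of all windows) or an SRF CArG box (1.47%).

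The p53 feedback genes Mdm2 and Ccng1 did not pass. Mdm2, which encodes the ubiquitin ligase of p53 and lies on chromosome 10 (117688875 to 117710758), had a lowest, median and highest value of 49.4, 52.6 and 54.7 CPM in epinephrine libraries, against 44.6, 46.4 and 50.2 CPM in vehicle libraries. In total 5 of the 6 epinephrine libraries lay above the highest vehicle library, vehicle 2. The log2 fold change was 0.17 (SE 0.05, 95% interval 0.07 to 0.27, edgeR adjusted p = 0.0552). It passed in DESeq2 (adjusted p = 0.000142), with RLE scaling (edgeR, 0.0337) and in limma on the deposited VST values (0.0302). In edgeR it also passed with the epididymal score (adjusted p = 0.0397), without the 3 libraries of high Gpx5 (0.0355) and without vehicle 2 (0.0173). It did not pass with upper quartile scaling (log2 fold change 0.14, edgeR adjusted p = 0.12) or library size scaling (0.06, 0.64). Nor did it pass in edgeR with no filter on low counts (adjusted p = 0.11) or a mean CPM of at least 1 (0.0532). The replicate block (edgeR adjusted p = 0.133), listed age (0.156), numbers 1 to 3 (0.697) and numbers 4 to 6 (0.145) left it uncalled too.

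Ccng1, the cyclin G1 gene on chromosome 11 (40748552 to 40755309), had a lowest, median and highest value of 101, 125 and 147 CPM in epinephrine libraries, against 97.4, 121 and 132 CPM in vehicle libraries. The groups overlapped, with epinephrine 1 and vehicle 2 again the lowest of their groups. The log2 fold change was 0.06 (SE 0.10, 95% interval -0.15 to 0.27, edgeR adjusted p = 0.869).

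Divided by gene length, the levels of the members stood in a different order in each group. In epinephrine libraries Gadd45g averaged 161 ± 41.9 and Cdkn1a 66.1 ± 12.0 CPM per kilobase (SD, n = 6), the highest of the 10, and neither range touched that of its neighbour in the order. Ccng1 came next at 35.6 ± 4.29, followed by Plk2 at 25.6 ± 11.9 and Plk3 at 24.6 ± 4.80 CPM per kilobase. From Ccng1 down to Gadd45a, at 9.73 ± 1.74, each range overlapped the next. In vehicle libraries Ccng1 was highest at 34.1 ± 3.58 CPM per kilobase, with Gadd45g at 30.2 ± 13.3, Cdkn1b at 22.5 ± 1.11 and Cdkn1a at 16.6 ± 2.82. Ranges of neighbours overlapped there from Ccng1 to Gadd45a, and Plk3 had the lowest mean at 5.31 ± 1.30 CPM per kilobase. The Plk3 range (3.65 to 7.14) did not touch that of its neighbour Gadd45a but overlapped that of Gadd45b (5.02 to 36.7).

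**Figure D3:**
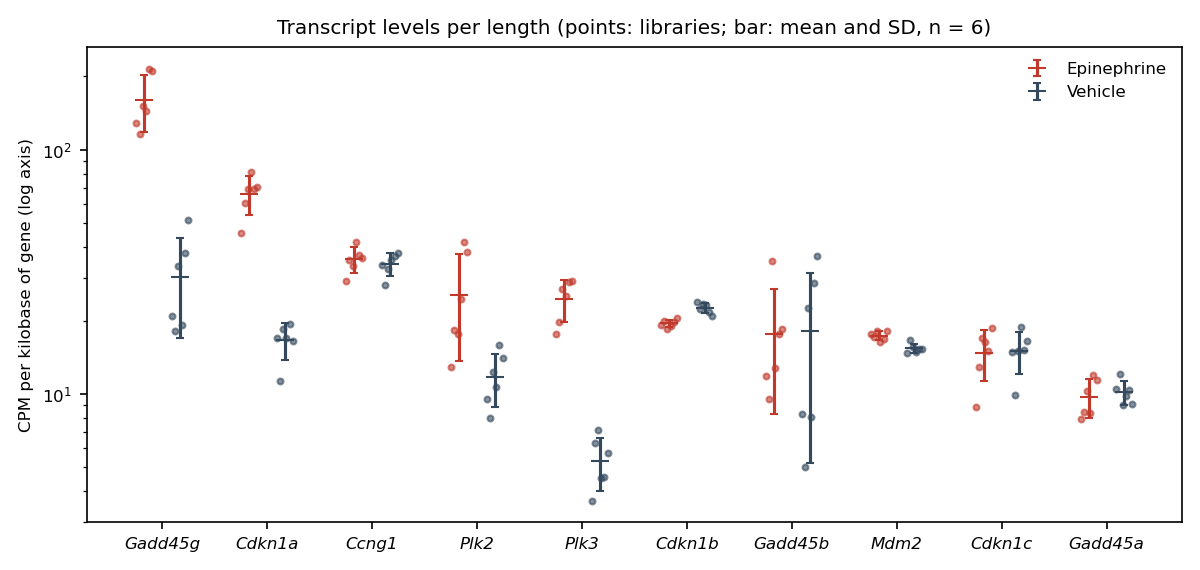
CPM per kilobase of the deposited gene length (y axis, log scale) for the 10 members, ordered by their mean in epinephrine libraries, with epinephrine left and vehicle right; points are libraries and bars the mean and SD (n = 6 each). Gadd45g and Cdkn1a stand above the others with epinephrine, and Plk3 has the lowest mean with vehicle.

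Spread between mice also set the members apart. The coefficient of variation of Cdkn1b was 3.65% with epinephrine and 4.94% with vehicle, and that of Mdm2 was 4.12% with epinephrine and 4.28% with vehicle. Gadd45b had 52.8% with epinephrine and 71.4% with vehicle, and Plk2 had 46.5% with epinephrine and 24.9% with vehicle. The small differences of Cdkn1b and Mdm2 are thus in genes that varied little, whereas a change of the same size in Gadd45b was not detectable with these libraries.

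Each called member had its closest match in profile over the 12 libraries among 13559 other genes, measured as the mean absolute difference of log2 CPM after centring each gene. For Cdkn1a the closest were Gm13889 at 0.119, Itprip at 0.153 and Crem, a CREB-family gene, at 0.161, where the median gene was at 1.02. For Plk3 they were Ppp1r15a, which restores translation after stress, at 0.173, the chaperone gene Hsp90aa1 at 0.208 and Bag3 at 0.214 (median 1.13). For Gadd45g they were the AP-1 gene Fosl2 at 0.231, the kinase gene Sik1 at 0.259 and Maff at 0.266 (median 1.26). For Plk2 they were Spry4, an inhibitor of receptor tyrosine kinase signalling, at 0.202, the survival gene Mcl1 at 0.205 and Cdr2 at 0.207 (median 0.618). For Cdkn1b, which changed little, they were Bloc1s6 at 0.0354, Zbtb44 at 0.0365 and Clcc1 at 0.0419 (median 0.235). Closeness was measured over both groups, so these genes share the members' difference between the groups by selection.

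Other genes of the same pathways were described from 8 lists. Among 26 other p53 targets, 4 were higher and 1 lower, where 2.65% of all tested genes were higher and 3.58% lower. Their median log2 fold change was -0.02 beside 0.00 for all tested genes. The lists were chosen with earlier results of these data known, so these counts are a description. Btg2, an antiproliferative gene that also answers growth factors, averaged 887 ± 341 CPM with epinephrine and 118 ± 54.2 CPM with vehicle (SD, n = 6 each), with a log2 fold change of 2.90 ± 0.37 (SE, edgeR adjusted p = 0.000859). Tnfrsf10b, the mouse TRAIL death receptor gene, averaged 47.8 ± 14.7 CPM with epinephrine and 8.45 ± 1.70 CPM with vehicle (SD, n = 6 each), with a log2 fold change of 2.50 ± 0.23 (SE, edgeR adjusted p = 0.000118). The stress-induced sestrin gene Sesn2 was higher (log2 fold change 0.98, SE 0.20, edgeR adjusted p = 0.0141), while its relative Sesn1 was lower (-0.41, SE 0.09, adjusted p = 0.0187, and 0.0548 with the replicate block). With listed age as a covariate the log2 fold changes were 1.21 for Btg2 (edgeR adjusted p = 0.0776), 1.42 for Tnfrsf10b (0.0137) and 1.00 for Sesn2 (0.10). Pmaip1, which encodes the BH3-only protein Noxa, was the fourth higher gene (log2 fold change 0.93, SE 0.24, edgeR adjusted p = 0.0419). The call of Pmaip1 ended with library size scaling (edgeR adjusted p = 0.0512), with no filter on low counts (0.0549), without the 3 libraries of high Gpx5 (0.062), with listed age (log2 fold change 0.61, 0.343), within numbers 1 to 3 (0.474) and within numbers 4 to 6 (0.152). It held without epinephrine 1 (0.0302), epinephrine 4 (0.0339) or vehicle 6 (0.0416) and ended without any other single library (0.0515 to 0.0981).

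Trp53 itself was at 39.5 ± 2.06 CPM with epinephrine and 42.7 ± 3.17 CPM with vehicle (SD, n = 6 each; log2 fold change -0.11, edgeR adjusted p = 0.399). Of the 15 genes of p53 and its regulators, 0 passed in edgeR or DESeq2 and 0 had an unadjusted p under 0.05, with a median log2 fold change of 0.03. Hipk2, a p53 kinase gene, had the second smallest p of that list (log2 fold change 0.49, SE 0.30, edgeR adjusted p = 0.484). Of 11 kinase genes that act with GADD45 proteins, 0 passed in edgeR or DESeq2 and 2 had an unadjusted p under 0.05 (median 0.03), Map2k7 having the smallest p (log2 fold change -0.12, edgeR adjusted p = 0.194).

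Genes of the cell cycle machinery did not pass in edgeR as reported here, and some did in other settings. Of 15 cyclins and CDKs, 0 passed in edgeR or DESeq2 and 0 had an unadjusted p under 0.05, with a median log2 fold change of -0.06 and values from -0.26 to 0.51. Of 16 proliferation genes, 0 passed and 3 had an unadjusted p under 0.05 (median -0.12, range -0.41 to 0.21), and Mcm4, a subunit of the replicative helicase, was nearest at 18.2 ± 2.03 CPM with epinephrine and 22.0 ± 1.51 CPM with vehicle (SD, n = 6 each; log2 fold change -0.27, edgeR adjusted p = 0.0714). Of the other CDK inhibitors and genes of p27 turnover, 6 of 7 were tested, 0 passed and 1 had an unadjusted p under 0.05, Cdkn2d at a log2 fold change of -0.41 (edgeR adjusted p = 0.0898). Neither tested Polo-like kinase outside the members passed in edgeR or DESeq2. Plk1, the mitotic kinase gene, was at 1.56 ± 0.431 CPM with epinephrine and 2.29 ± 0.270 CPM with vehicle (SD, n = 6 each; log2 fold change -0.55, edgeR adjusted p = 0.143), and Plk4 had a log2 fold change of -0.12. The 4 FoxO genes, whose products can drive Cdkn1b and Gadd45a, had values from -0.20 to 0.21, and 0 passed in either tool or had an unadjusted p under 0.05. In DESeq2, Cdkn2d (adjusted p = 0.0353), Mcm4 (0.0221) and Pcna (0.0183, log2 fold change 0.17) passed. Other edgeR settings called Cdkn2d (library size scaling 0.00832, listed age 0.00607, epididymal score 0.0204), Mcm4 (library size scaling 0.0156, epididymal score 0.0441), Mcm7 (library size scaling 0.0235, listed age 0.0222) and Cdk2 (library size scaling 0.0321, listed age 0.0224) as lower. Cdk7 was called lower without the 3 libraries of high Gpx5 (edgeR adjusted p = 0.0488) and Plk1 with the epididymal score (0.0408). Without epinephrine 1, Cdk7 (0.0419) was called lower and Pcna (0.0452) higher, and Mcm4 was called lower without epinephrine 6 (0.0224) or vehicle 2 (0.0494).

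**Figure D4:**
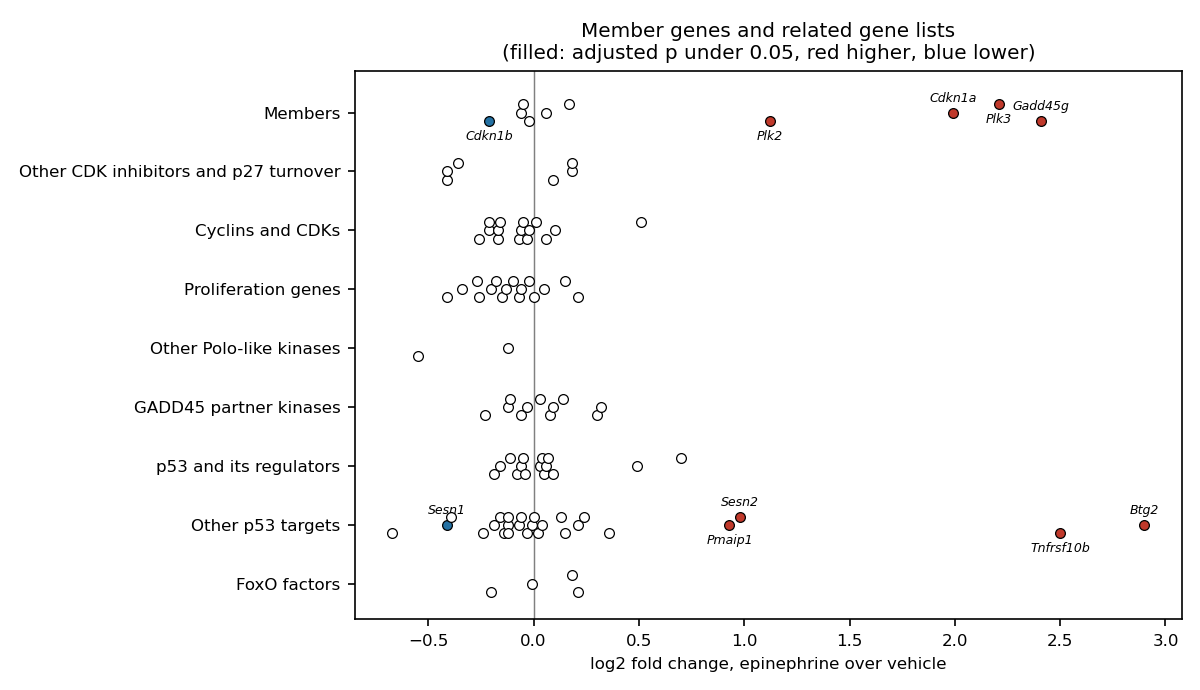
Log2 fold change of each gene (x axis, epinephrine over vehicle) for the members and 8 related lists, 1 point per gene; filled points have an edgeR adjusted p under 0.05, red for higher and blue for lower. Calls appear among the members and the other p53 targets, and the other lists show open points only.

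The replicate numbers fall into sets 1 to 3 and 4 to 6 that differ in epididymal content, and the labels do not call them batches. Within numbers 1 to 3, the log2 fold changes were 1.93 for Cdkn1a, 2.46 for Gadd45g, 1.93 for Plk3 and 0.73 for Plk2. There edgeR called 0 genes of the whole table, with 1356 at an unadjusted p under 0.05. Within numbers 4 to 6 they were 2.06, 2.38, 2.48 and 1.37 in the same order, all 4 past the threshold. Cdkn1b was at -0.25 within numbers 1 to 3 and -0.15 within numbers 4 to 6, past the threshold in neither. Gadd45b was at 0.67 within numbers 1 to 3 and -0.59 within numbers 4 to 6, also past it in neither, and this difference was not tested.

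**Figure D5:**
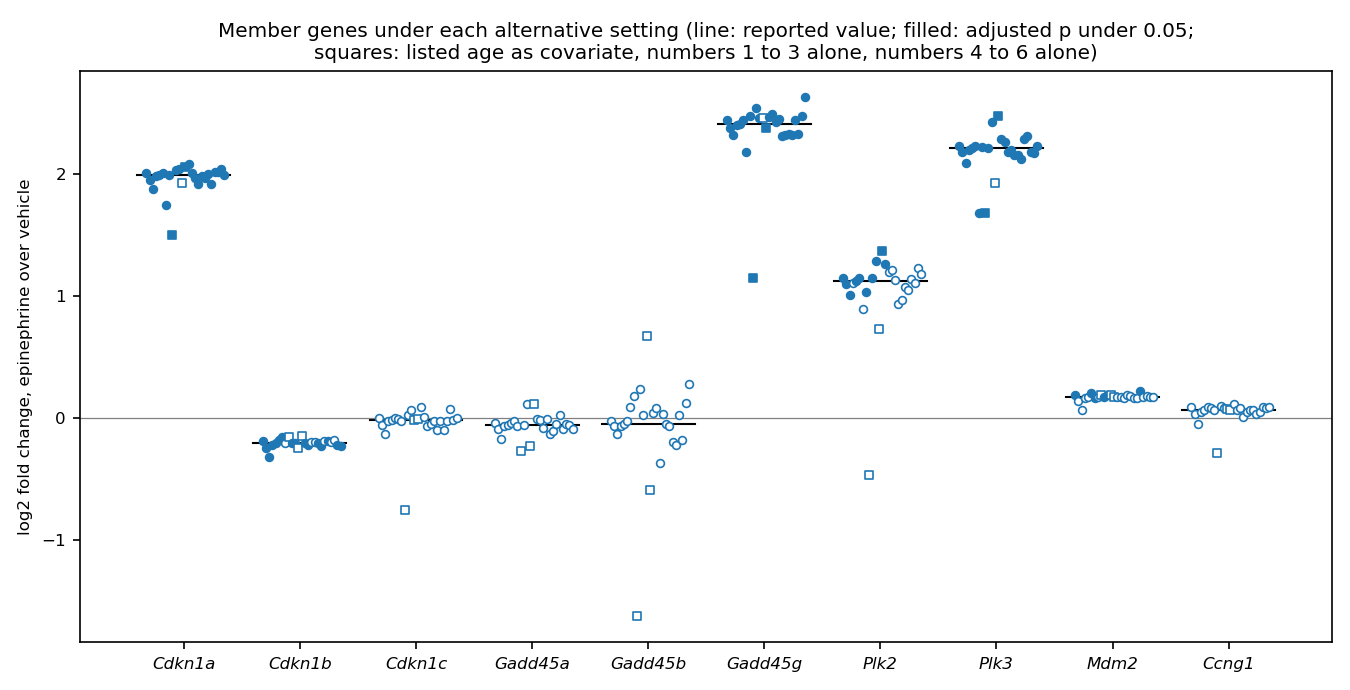
Log2 fold change of each member (y axis, epinephrine over vehicle) under every alternative, with the reported value as a line; filled points have an adjusted p under 0.05 and squares mark the fit with listed age and the fits within numbers 1 to 3 or 4 to 6. Cdkn1a, Gadd45g and Plk3 stay above 1 in each fit, Plk2 falls below 0 with listed age, and Gadd45b moves to both sides of 0.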

How the data were processed

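RNA of 12 eWAT samples was sequenced with a SMARTER mRNA kit, per the labels' protocols. Tools listed in the submitters' processing notes are HISAT2, featureCounts, cutadapt, FastQC and DESeq2, without versions, on mm10; whether reads were counted by strand is not given in the sources used here. In GENCODE M21 some exons overlap opposite-strand genes: 84 bases of Plk3 with Tctex1d4 (11 to 168 counts per library), 273 of Cdkn1a, 625 of Cdkn1c and 337 of Gadd45a. Reads of such pairs may not be kept apart. The authors deposited whole-number counts per gene, with gene lengths, and a table of VST values on a log2-like scale.

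Genes were kept by filterByExpr (minimum count 10, total 15), TMM factors set the scale, and testing used edgeR 4.0.16 (glmQLFit, robust; glmQLFTest; R 4.3.3), with adjustment over all 16175 tested genes and a threshold of 0.05. A prior count of 1 was added for log2 values, and CPM include the TMM factor. Gene models without a symbol held 0.253% to 0.315% of counts and stayed in. Mice are separate animals per the labels. Ratios within libraries were compared by exact permutation, and their intervals hold every shift that the test does not reject at 0.05. Genes were named by rule: the members, up to 4 of each list with the smallest p, and the 3 closest profiles of each called member among genes averaging 1 or more in log2 CPM; Pmaip1, Ccl2, Fos and Gpx5 were named after their values were seen. Members, lists, motifs and alternatives were chosen with earlier results of these data known. Promoter windows and positions are RefSeq's for GRCm38.p6, the build of mm10; 9 members had a window, and Cdkn1c is named only. On simulated counts, 55 of 98 genes changed 2-fold (56.1%) and 83 of 96 changed 4-fold (86.5%) were recovered, with 4 of 15834 unchanged genes called, among 16028 tested. Simulated counts were drawn for each gene on its own, without variation shared between genes such as the epididymal content. They therefore give no error rate for these libraries.

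The titles give the replicate numbers. Libraries of one number deviated together in all 6 pairs (correlation across genes 0.262 to 0.799, all over 0.1), though 3 of the 12 libraries correlated best with their own number. The number as a block was an alternative, beside other scalings and filters, DESeq2 1.42.0, limma 3.58.1 on the VST values, covariates and leaving out libraries.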

Additional observations from a re-analysis of the deposited data

Results flagged for a closer look

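In 2 groups of member values a library stood far from the other 5 by Dixon's criterion, which flags about 1 group in 20 by chance, and 112 groups of 6 libraries were examined. Cdkn1a was at 22.9 CPM in vehicle 2, where the other vehicle libraries had 33.5 to 39.3 CPM. Gadd45b was at 44.6 CPM in epinephrine 3, where the other epinephrine libraries had 12.0 to 23.4 CPM.

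Among the related genes, Cdk2 was at 24.6 CPM in vehicle 2 (others 29.5 to 32.5 CPM). Cdk6 was at 5.84 CPM in epinephrine 1 (others 1.98 to 3.19 CPM), and Pcna at 45.3 CPM in epinephrine 1 (others 51.3 to 54.1 CPM). Vehicle 2 and epinephrine 1 are the libraries with the highest epididymal shares, 5.44% and 3.89% of counts, and their part in these values was not tested.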

How the results depend on the processing

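Cdkn1a, Gadd45g and Plk3 kept their direction in all 25 alternatives and their call in all but numbers 1 to 3 alone (1.93, 2.46 and 1.93), where 0 members were called and 0 genes higher or lower in all. Cdkn1b lost its call with the replicate block (-0.21), listed age (-0.16), numbers 1 to 3 (-0.25) and numbers 4 to 6 (-0.15), so the count of lower members was 0 there, and 0 to 1 with each library left out (-0.23 to -0.18). Plk2 lost its call without a filter (1.11), on VST values (0.89), in numbers 1 to 3 (0.73) and in most fits without a library (0.93 to 1.26), and was -0.47 with listed age. Mdm2 gained a call with RLE (0.19), DESeq2 (0.20), VST values (0.16), the epididymal score (0.17), without the high-Gpx5 libraries (0.19), and among fits without a library (0.16 to 0.22). Upper quartile scaling (0.14) and library size scaling (0.06) left Mdm2 uncalled. Members that never passed changed sign: Cdkn1c with the epididymal score (0.02), without the high-Gpx5 libraries (0.06) and without single libraries (-0.10 to 0.09); Gadd45a without the high-Gpx5 libraries (0.11), in numbers 4 to 6 (0.11) and without single libraries (-0.13 to 0.02); Gadd45b on VST values (0.09), with the block (0.18), the score (0.24), without the high-Gpx5 libraries (0.02), in numbers 1 to 3 (0.67) and without single libraries (-0.37 to 0.28); Ccng1 with library size scaling (-0.05) and listed age (-0.29). With listed age Cdkn1c was at -0.76 (edgeR adjusted p = 0.0829), Gadd45a at -0.27 (0.437) and Gadd45b at -1.63 (0.144), uncalled and with their sign kept. The Gadd45b to Gadd45a ratio ran from -0.10 to 0.55 without single libraries. The other ratio calls held, also in the replicate block. Related genes changed sign with listed age: Cks1b (-0.07), Skp2 (0.71), Cdk7 (0.13), Ccng2 (-0.15), Hipk2 (-0.63), Foxo1 (-1.14), Spry4 (-0.09) and Cdr2 (-0.08); others were Ccng2 with library size scaling (-0.01), Cdkn2b in numbers 1 to 3 (0.05), Chek2 in numbers 4 to 6 (0.07) and Foxo6 with RLE and DESeq2 (0.01 each), without the high-Gpx5 libraries (0.15), in numbers 4 to 6 (0.31) and without single libraries (-0.19 to 0.16). Of the 26 named related genes that did not pass, 12 passed with their sign kept in at least 1 alternative. They were those of the cell cycle lists given with those lists and, with listed age, Cdkn2b (-1.28), Foxo3 (0.73) and Foxo4 (-0.57). The others were Hipk2 with the epididymal score (0.72) and Map2k7 with upper quartile (-0.15) and library size scaling (-0.22). Foxo1 passed as well with listed age, but with its sign changed (-1.14, edgeR adjusted p = 0.0259). The 428 higher and 579 lower genes of the table became 759 and 884 in DESeq2, 2339 and 1528 with listed age, 717 and 1002 with the score, 786 and 1028 without the high-Gpx5 libraries, and 696 and 632 in numbers 4 to 6. Library size scaling, which moved the median of all genes to -0.11, gave 360 and 1448, RLE 461 and 447, and the replicate block 385 and 365; without single libraries 276 to 797 were lower. The cause of these changes was not tested. Listed age follows group and number, so its fit rests on the trend within groups, and genes at a few CPM, such as Plk1, are limited by depth.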

Other observations

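The log2 ratio of Gadd45g to Gadd45a spread less among epinephrine libraries than among vehicle libraries, from 3.60 to 4.02 with epinephrine and from 0.40 to 2.32 with vehicle. The spread itself was not tested. Both GADD45 genes with wide vehicle ranges, Gadd45b and Gadd45g, were highest there in vehicle 6, which held the lowest epididymal share of all 12 libraries (0.00402%).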
